A study of Homo sapiens with 9 samples.

Results

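A set of 10 genes widely read as markers of tubular injury and repair was followed in cultured kidney tubule cells: HAVCR1, LCN2, SPP1, CLU, SOX9, SOX4, PROM1, CD44, VCAM1 and CD24. They were taken by symbol from a table of 62703 genes, and all 10 were present. Counts were high enough to test 8 of them, among 18267 genes tested, while SPP1 and VCAM1 did not pass the filter on low counts. HAVCR1 and PROM1 passed it through the groups in which they were high.

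The study addressed MYDGF, a secreted growth factor, in tubule cells injured by aristolochic acid, a plant nephrotoxin that forms DNA adducts. RNA from HK-2 cells, a proximal tubule line transformed with human papillomavirus 16, was sequenced in 3 groups of 3 libraries. The MYDGF group (libraries 1, 3 and 4) carried an adenovirus for overexpression of MYDGF and received aristolochic acid at 5 µg/ml for 48 h. The aristolochic acid group (libraries 1, 4 and 6; genotype given as WT) received 5 µg/ml for 48 h, and the untreated group (libraries 1, 2 and 3; also WT) received none. Culture in 5% fetal bovine serum and 12 h of serum starvation are stated for the study without singling out a group. No control vector and no vehicle are named for the other two groups, so MYDGF and its vector cannot be told apart, nor the toxin and its solvent. The treatment labels of 4 libraries read HK-3 or HK-4 although their cell line is given as HK-2; all are read as HK-2. Whether the 3 libraries of a group stem from separate cultures is not stated, so every p-value rests on the spread among them, which may be technical.

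Total counts were 12.9 to 14.3 in units of 1e6 in the MYDGF group, 10.9 to 12.9 with aristolochic acid and 12.0 to 13.4 in untreated cells. Levels are counts scaled to 1e6 per library with TMM factors (CPM), as mean ± SD over 3 libraries. Tests are edgeR's quasi-likelihood test, adjusted over all genes tested by Benjamini and Hochberg, with a threshold of 0.05. MYDGF stood at 661, 509 and 598 CPM in MYDGF libraries 1, 3 and 4, at 105, 73.9 and 90.1 CPM with the toxin alone, and at 125, 130 and 123 CPM in untreated cells. All 3 MYDGF libraries were above every other library, as their label requires, but the counts do not tell vector transcripts from those of the cells' own gene.

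In the kidney, an injured proximal tubule cell loses transporters and switches on a small set of genes that are almost silent in the intact epithelium. HAVCR1 and LCN2 encode KIM-1 and NGAL, which are shed or secreted and measured in urine as signs of acute injury. SOX9 and SOX4 are transcription factors of epithelial repair and development, PROM1 (CD133) and CD24 mark scattered tubular cells with progenitor features, and VCAM1 is a marker of cells whose repair has failed. A cell line in serum has already left the intact state, so a marker may be high in it before any treatment.

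Aristolochic acid did not move these markers as one group. Against untreated cells HAVCR1 and PROM1 rose, LCN2, CLU, SOX4 and CD24 fell, and SOX9 and CD44 did not pass the test. That makes 6 of 8 called, where 59% of all genes tested were called; 2 were higher (background 29.7%) and 4 lower (background 29.3%). With MYDGF, against aristolochic acid alone, SOX4 and CD24 were higher and PROM1 lower, 3 of 8 called against a background of 29.4% (14.7% in either direction). The MYDGF group set against untreated cells had 4 of 8 called (background 51.1%): HAVCR1, PROM1 and SOX9 higher (background 26.8%) and LCN2 lower (background 24.3%). The shares of called members are near the background in each comparison, so the counts say nothing particular to these genes. The first pair of comparisons shares the aristolochic acid libraries, and RNA from bulk cultures cannot tell fewer cells with a transcript from less of it per cell.

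**Figure D1:**
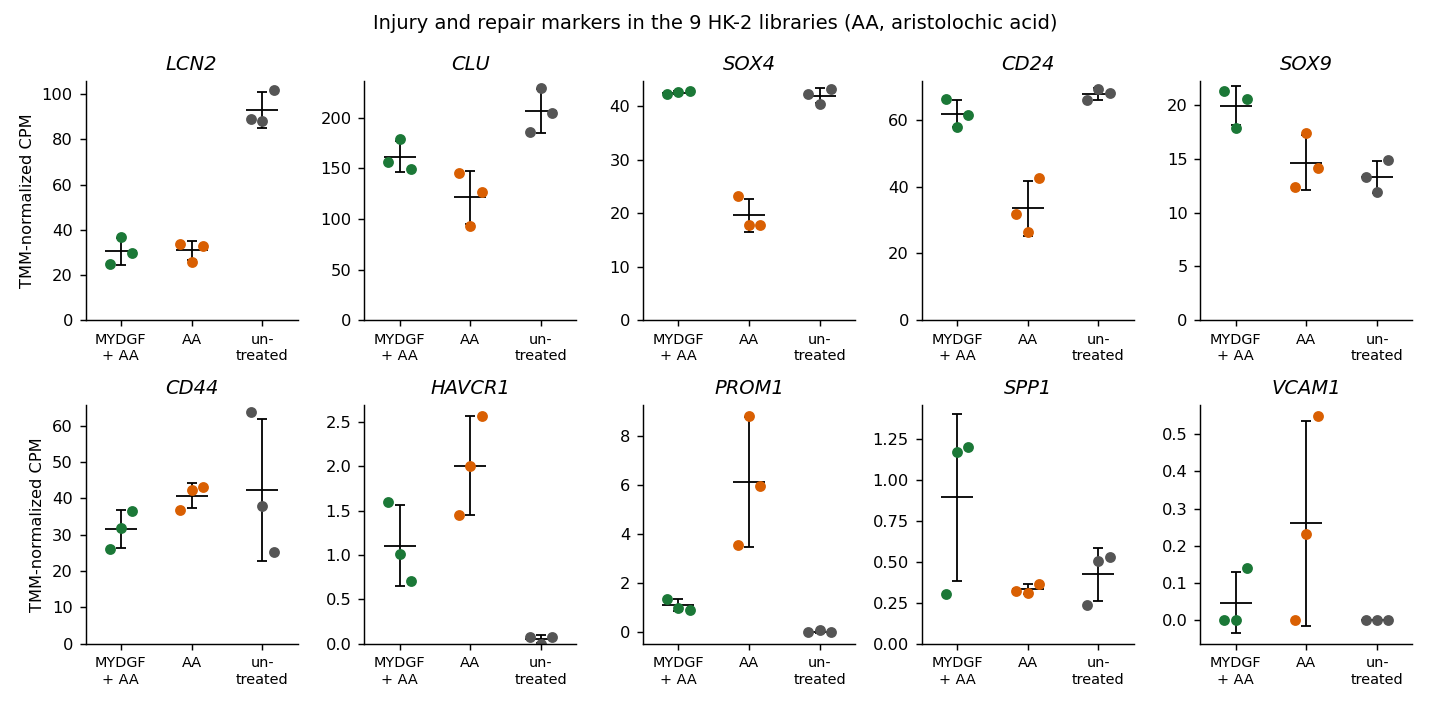
Each panel shows one marker's TMM-normalized CPM (vertical axis, linear, a scale of its own per panel) in the 3 libraries of each group (points), with the mean (bar) and SD (whiskers); AA is aristolochic acid. LCN2, CLU, SOX4 and CD24 are lower with AA than in untreated cells in every library, HAVCR1 and PROM1 are higher, and SOX4 and CD24 in the MYDGF group lie near the untreated level.

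For LCN2 and CD24, both lower with aristolochic acid, sequence from the 250 bases before the transcription start of the RefSeq table is shown (for CD24 the most upstream of 3 starts). Both carried matches to motifs of injury-linked factors, which does not set them apart: SOX4, CD44 and VCAM1 carried some too. The stretches come from the RefSeq promoter table (GRCh38.p14), are written along each gene's own strand and hold no exon of GENCODE 29. LCN2 is on chr9:128149265-128149440 (plus strand, 176 bases) and CD24 on chr6:106975628-106975877 (minus strand, 250 bases). The LCN2 stretch ends 12 bases before that start, where an exon of GENCODE 29 begins, and lies inside the LCN2 locus of the deposited table, which begins further upstream; the CD24 stretch ends at its start. Capitals mark the motif matches.
LCN2: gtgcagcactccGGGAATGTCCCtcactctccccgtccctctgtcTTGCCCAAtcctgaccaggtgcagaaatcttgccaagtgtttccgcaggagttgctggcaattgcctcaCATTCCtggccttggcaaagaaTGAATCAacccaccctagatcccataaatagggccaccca
CD24: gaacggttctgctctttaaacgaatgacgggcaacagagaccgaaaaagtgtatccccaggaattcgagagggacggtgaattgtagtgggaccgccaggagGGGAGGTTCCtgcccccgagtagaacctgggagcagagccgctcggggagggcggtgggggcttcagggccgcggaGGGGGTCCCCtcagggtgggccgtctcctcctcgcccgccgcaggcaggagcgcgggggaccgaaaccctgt

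The motifs were searched on both strands in the 250 bases before the RefSeq start, and distances count from that start to the first base of a match, not from the end of the printed stretch. CD24 has 3 such starts and PROM1 has 4, and only the most upstream of each was searched. LCN2 held 2 overlapping NF-kB-like matches (GGGNNNNNCC) that begin 176 and 175 bases before the start, the second sharing its first letters with a TEAD match (GGAATG). It also held a C/EBP-like match (TTGCNNAA) at 143, a TEAD match on the other strand at 74 and an AP-1 match (TGANTCA) at 52 bases. CD24 held NF-kB-like matches at 148 and 72 bases. Of 35116 promoters in the table, 54.4% held the NF-kB-like letters, 9.05% the C/EBP-like, 11.9% the TEAD and 6.57% the AP-1 letters, so the NF-kB-like match is common and none of these is shown to be a site. SOX4 held a TEAD match at 178 bases, CD44 and VCAM1 held NF-kB-like matches, and HAVCR1, SPP1 and PROM1 held none of the searched letters, which also included SOX-like AACAAT (8.98%) and the TATA box TATAAA (10.7%); VCAM1 held the last. CLU and SOX9 had no entry. The searched bases of HAVCR1, PROM1 and CD44 lie inside their loci in the deposited table, and those of SPP1 do in part. For HAVCR1, on the minus strand, they are 157059117 to 157059366 on chromosome 5, while the locus reaches upstream to 157069396. Bases before that locus start were not searched.

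Among the secreted members, LCN2 was lower than in untreated cells both with aristolochic acid alone and with MYDGF. LCN2 (ENSG00000148346, chromosome 9, 128149071 to 128153453) encodes a lipocalin that binds iron-loaded siderophores. It stood at 24.9, 36.8 and 29.6 CPM in MYDGF libraries 1, 3 and 4, at 33.8, 25.8 and 32.7 CPM in libraries 1, 4 and 6 given aristolochic acid alone, and at 89.1, 87.9 and 102 CPM in untreated libraries 1, 2 and 3. Every library that received aristolochic acid lay below every untreated one, and the 2 groups that received it overlapped. The log2 fold change was -1.59 with aristolochic acid (SE 0.153, n = 3 per group, edgeR adjusted p = 3.42e-05) and -1.61 in the MYDGF group (SE 0.153, adjusted p = 4.73e-05), each against untreated cells. Between the MYDGF and aristolochic acid groups the difference was -0.02 (SE 0.153, edgeR adjusted p = 0.945), with a sign that changed to 0.10, 0.05 and 0.02 without MYDGF library 1, aristolochic acid library 1 or aristolochic acid library 6. The direction against untreated cells was opposite to the rise in LCN2 for which the gene is known in injured kidney.

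Clusterin, a secreted chaperone that binds misfolded proteins and cell debris, fell with aristolochic acid. CLU (ENSG00000120885, chromosome 8, 27596917 to 27614700) stood at 156, 179 and 149 CPM in MYDGF libraries 1, 3 and 4, at 145, 93.4 and 126 CPM in libraries 1, 4 and 6 with aristolochic acid alone, and at 187, 230 and 205 CPM in untreated libraries 1, 2 and 3. All libraries given aristolochic acid were below the untreated ones, and all MYDGF libraries were above all libraries with aristolochic acid alone. The fall with aristolochic acid was -0.77 (SE 0.152, n = 3 per group, edgeR adjusted p = 0.00192). The MYDGF group differed from aristolochic acid alone by 0.41 (edgeR adjusted p = 0.0692), a difference of 0.56 that passed (adjusted p = 0.0203) without aristolochic acid library 1. Against untreated cells it differed by -0.36 (edgeR adjusted p = 0.0755), and by -0.35 (adjusted p = 0.0195) without aristolochic acid library 4.

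Osteopontin, a secreted phosphoprotein that binds integrins and CD44 and is made by injured tubules, was close to the limit of the counts. SPP1 (ENSG00000118785, chromosome 4, 87975667 to 87983532) had 4, 15 and 17 counts in MYDGF libraries 1, 3 and 4, 4 in each aristolochic acid library, and 3, 6 and 7 in untreated libraries 1, 2 and 3. MYDGF library 1 lay among the other groups and the other two lay above all 6 of them. Summed, 36 counts in the MYDGF group against 12 with aristolochic acid gave a ratio of 2.71 (95% exact counting interval 1.38 to 5.73, which covers counting error only). The ratio of aristolochic acid to untreated cells, 12 counts against 16, was 0.782 (interval 0.338 to 1.76), so no change was detectable at this depth. Without the filter on low counts, the difference between MYDGF and aristolochic acid was 1.42 on the log2 scale (edgeR adjusted p = 0.125). Without MYDGF library 1 the gene passed the filter and the difference was 1.80 (adjusted p = 0.0184), and 1.48 against untreated cells (adjusted p = 0.0174).

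Of the 10 markers, 4 were near silent in untreated cells, taken as a mean below 0.5 CPM: HAVCR1 at 0.0515, SPP1 at 0.423, PROM1 at 0.0279 and VCAM1 at 0 CPM. The other 6 averaged 13.4 CPM (SOX9) to 207 CPM (CLU) there. HAVCR1, PROM1 and VCAM1 are membrane proteins, and HAVCR1 and PROM1 rose with aristolochic acid.

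HAVCR1 (ENSG00000113249, chromosome 5, 157026742 to 157069396) encodes KIM-1, a phosphatidylserine receptor through which injured tubule cells take up dying neighbours. It had 21, 13 and 10 counts in MYDGF libraries 1, 3 and 4, 18, 26 and 28 in libraries 1, 4 and 6 given aristolochic acid alone, and 1, 0 and 1 in untreated libraries 1, 2 and 3. Both groups given aristolochic acid lay clear of the untreated libraries, while MYDGF library 1 (1.60 CPM) lay above aristolochic acid library 1 (1.45 CPM). The ratio of aristolochic acid to untreated cells, 72 counts against 2, was 37.5 (95% counting interval 10.02 to 316), and that of the MYDGF group, with 44 counts, was 20.7 (interval 5.41 to 177). The fitted log2 fold changes were 5.00 (SE 0.612, n = 3 per group, edgeR adjusted p = 0.000126) and 4.15 (SE 0.660, adjusted p = 0.000789). MYDGF against aristolochic acid gave -0.85 (SE 0.371, edgeR adjusted p = 0.112), which did not pass.

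PROM1 (ENSG00000007062, chromosome 4, 15963076 to 16084378), the membrane protein CD133 of plasma membrane protrusions, was the one marker called lower with MYDGF than with aristolochic acid alone. It had 18, 13 and 13 counts in MYDGF libraries 1, 3 and 4, 44, 115 and 65 in libraries 1, 4 and 6 given aristolochic acid alone, and 0, 1 and 0 in untreated libraries 1, 2 and 3. The 3 groups did not overlap, with the MYDGF group between the other two. It averaged 1.10 ± 0.242 CPM with MYDGF, 6.12 ± 2.65 CPM with aristolochic acid and 0.0279 ± 0.0483 CPM in untreated cells. The log2 fold change of MYDGF against aristolochic acid was -2.47 (SE 0.389, n = 3 per group, edgeR adjusted p = 0.00271), a count ratio of 0.178 (95% counting interval 0.126 to 0.246). Aristolochic acid against untreated cells, 224 counts against 1, gave a ratio of 234 (interval 41.5 to 9267) and a fitted log2 fold change of 7.40 (SE 0.675, edgeR adjusted p = 2.64e-05). The MYDGF group against untreated cells gave 4.93 (SE 0.840, adjusted p = 0.00114). Without untreated library 2, which holds the single untreated count, the fitted values became 9.29 and 6.82; against a group without counts their size depends on the fit and is no bound.

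VCAM1 (ENSG00000162692, chromosome 1, 100719742 to 100739045), an adhesion receptor for leukocyte integrins, had 0, 0 and 2 counts in MYDGF libraries 1, 3 and 4, 0, 3 and 6 in libraries 1, 4 and 6 given aristolochic acid alone, and 0 in each untreated library. Against the floor of 3 counts over the untreated group, the 9 counts with aristolochic acid were 3.13-fold higher. That value takes the 9 counts as exact, so it is no lower bound. Library 1 of that group had no count, and without the filter the difference did not pass (edgeR adjusted p = 0.102). The 2 counts of the MYDGF group are under the floor.

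The genes beside the near-silent markers were not silent. Upstream of HAVCR1 on the same strand, MED7, a subunit of the Mediator complex, is the nearest gene at or above 5 CPM in untreated cells and ends 68.0 kb away; it averaged 15.9 CPM with MYDGF, 10.4 CPM with aristolochic acid and 20.2 CPM in untreated cells, and fell with aristolochic acid (-0.96, edgeR adjusted p = 0.000144). HAVCR2, which encodes the immune receptor TIM-3 and lies partly between them, averaged 1.44, 2.75 and 0.267 CPM in the same order of groups, higher with aristolochic acid (3.33, adjusted p = 0.000116) and lower with MYDGF against aristolochic acid (-0.93, adjusted p = 0.0499); it passed the filter on low counts through the 2 groups given aristolochic acid. For PROM1 the upstream gene is TAPT1, 76.1 kb away, at 31.7, 35.0 and 22.1 CPM, higher with aristolochic acid (0.66, edgeR adjusted p = 0.000195). FGFBP2, which overlaps PROM1 on the same strand, had 2 counts with MYDGF, 17 with aristolochic acid and 0 in untreated cells. Upstream of VCAM1 stands CDC14A, 199.5 kb away, at 19.6, 27.2 and 12.0 CPM. The sources used here give no strand setting for the counts, and the part of these neighbours in the counts of HAVCR1, PROM1 and VCAM1 was not tested.

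**Figure D2:**
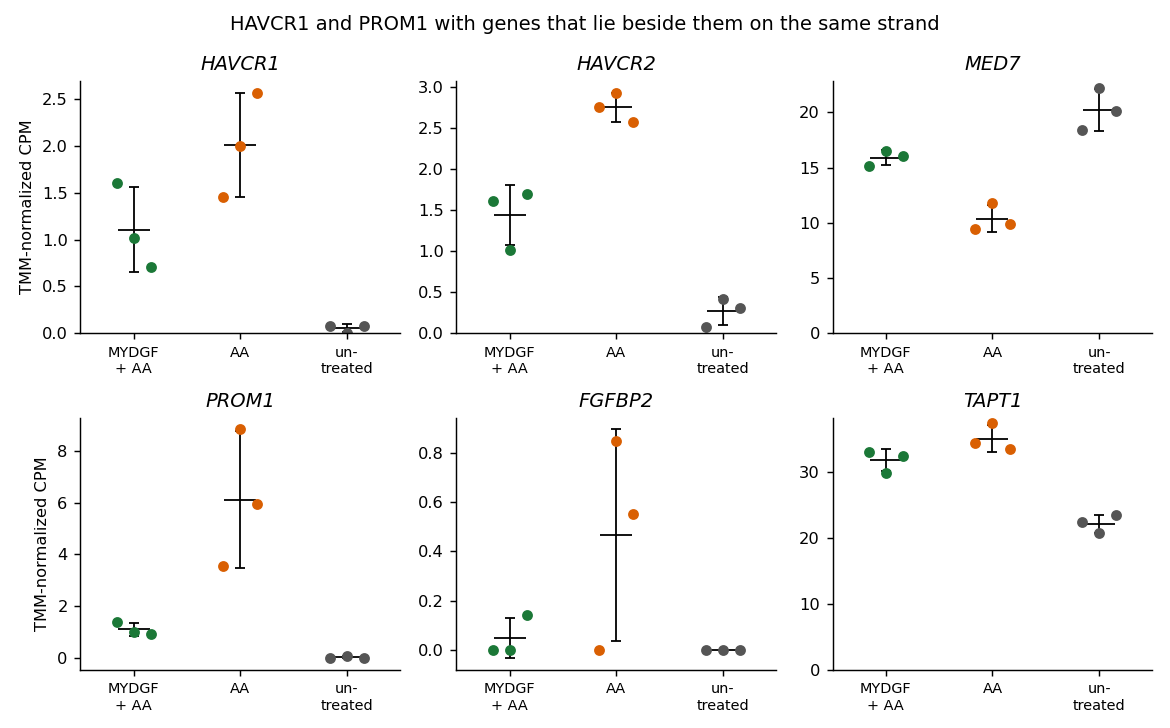
TMM-normalized CPM (vertical axes, linear) of HAVCR1 and PROM1 in the 3 libraries of each group (points; bar and whiskers, mean and SD), beside a gene next to or overlapping each and the nearest active upstream gene on the same strand; AA is aristolochic acid. HAVCR2 and FGFBP2 are highest with AA, as HAVCR1 and PROM1 are, whereas MED7 is lowest there and TAPT1 differs far less between groups.

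CD24 and SOX4, in contrast, were well expressed in untreated cells, fell with aristolochic acid and stood near the untreated level in the MYDGF group. CD24 (ENSG00000272398, chromosome 6, 106969831 to 106975627) encodes a small glycoprotein anchored in the membrane. It stood at 66.4, 58.0 and 61.7 CPM in MYDGF libraries 1, 3 and 4, at 31.7, 26.3 and 42.6 CPM in libraries 1, 4 and 6 given aristolochic acid alone, and at 66.0, 69.3 and 68.3 CPM in untreated libraries 1, 2 and 3. The aristolochic acid libraries lay apart from both other groups, which overlapped. CD24 fell by 1.02 with aristolochic acid (log2; SE 0.150, n = 3 per group, edgeR adjusted p = 0.000359) and was higher by 0.89 with MYDGF than with aristolochic acid alone (SE 0.150, adjusted p = 0.00350). MYDGF against untreated cells gave -0.13 (SE 0.147, edgeR adjusted p = 0.489). CD24 has near-identical copies elsewhere in the genome, and the sources used here do not say how reads shared between such copies were counted.

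SOX4 (ENSG00000124766, chromosome 6, 21593751 to 21598619) stood at 42.2, 42.6 and 42.7 CPM in MYDGF libraries 1, 3 and 4, at 23.2, 17.7 and 17.8 CPM in libraries 1, 4 and 6 given aristolochic acid alone, and at 42.3, 40.4 and 43.1 CPM in untreated libraries 1, 2 and 3. Every aristolochic acid library lay far below both other groups. The log2 fold changes were -1.10 with aristolochic acid against untreated cells (SE 0.108, n = 3 per group, edgeR adjusted p = 3.93e-05) and 1.12 with MYDGF against aristolochic acid (SE 0.108, adjusted p = 0.000529). Between MYDGF and untreated cells it was 0.02 (SE 0.105, edgeR adjusted p = 0.887), and -0.02 without untreated library 2. The 3 MYDGF libraries lay close together: the SD of log2 CPM was 0.00837, and 99.4% of 10657 genes at or above 10 CPM had a larger one in that group. An unnamed gene that overlaps SOX4 on the opposite strand, ENSG00000283480, had 13 counts with MYDGF and 0 in both other groups.

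SOX9, a transcription factor switched on in tubule cells that regrow after injury, was the one transcription factor among the markers called higher with MYDGF than in untreated cells. SOX9 (ENSG00000125398, chromosome 17, 72121020 to 72126416) stood at 21.4, 17.9 and 20.6 CPM in MYDGF libraries 1, 3 and 4, at 12.4, 17.5 and 14.2 CPM in libraries 1, 4 and 6 given aristolochic acid alone, and at 13.4, 11.9 and 14.9 CPM in untreated libraries 1, 2 and 3. The MYDGF libraries lay above all others, by a small margin over aristolochic acid library 4, and the other two groups overlapped. The rise over untreated cells was 0.58 (SE 0.149, n = 3 per group, edgeR adjusted p = 0.00998). Over aristolochic acid alone it was 0.44 (SE 0.148, edgeR adjusted p = 0.0511), just short of the threshold, and 0.59 (adjusted p = 0.0235) without aristolochic acid library 4. Aristolochic acid against untreated cells gave 0.14 (SE 0.150, edgeR adjusted p = 0.461), which turned to -0.01 without that library. The antisense gene SOX9-AS1 had 22, 12 and 10 counts in the MYDGF, aristolochic acid and untreated groups, few beside the 802, 535 and 508 counts of SOX9.

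CD44, the hyaluronan receptor that also binds osteopontin, did not pass in any comparison. CD44 (ENSG00000026508, chromosome 11, 35138882 to 35232402) stood at 26.0, 31.8 and 36.6 CPM in MYDGF libraries 1, 3 and 4, at 36.8, 42.3 and 43.0 CPM in libraries 1, 4 and 6 given aristolochic acid alone, and at 63.7, 37.8 and 25.2 CPM in untreated libraries 1, 2 and 3. The untreated libraries alone spanned the range of both other groups. Their SD of log2 CPM was 0.667, and 2.12% of the 10657 genes at or above 10 CPM had a larger one. The log2 fold change was -0.05 with aristolochic acid (SE 0.281, n = 3 per group, edgeR adjusted p = 0.883), and 0.36 without untreated library 1 or 0.03 without aristolochic acid library 1. MYDGF against aristolochic acid gave -0.37 (SE 0.283, edgeR adjusted p = 0.359). Against untreated cells MYDGF gave -0.42 (SE 0.283, edgeR adjusted p = 0.240), and -0.67 without untreated library 3 (adjusted p = 0.0370).

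**Figure D3:**
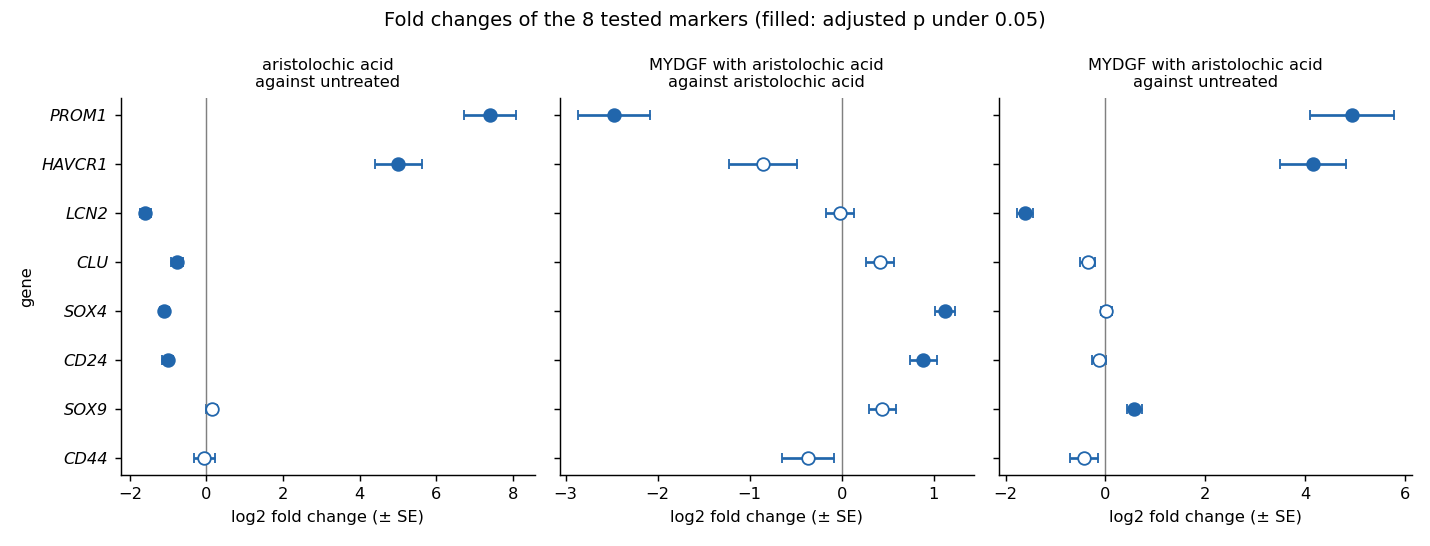
Log2 fold change (horizontal axis, a range of its own per panel) with its SE (whiskers) for the 8 tested markers in the 3 comparisons; filled points passed an edgeR adjusted p under 0.05 and open points did not. SOX4 and CD24 lie left of 0 in the first panel and right of it in the second, PROM1 the other way, and LCN2 lies at 0 in the second panel.

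Over all 10 markers, the libraries of aristolochic acid lay wholly above those of untreated cells for 2 and wholly below for 4 (backgrounds 32.8% and 33.1% of genes tested, 65.9% together). MYDGF libraries lay wholly above those of aristolochic acid alone for 4, CLU, SOX9, SOX4 and CD24, and wholly below for 2, PROM1 and, by a small margin, CD44 (backgrounds 22.5% and 21.8%, 44.3% together). For MYDGF against untreated cells the counts were 3 above (HAVCR1, PROM1 and SOX9) and 2 below (LCN2 and CLU; backgrounds 32.8% and 31.1%, 63.9% together).

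Levels of different markers were set side by side per length, as CPM per kb of the union of GENCODE 29 exons. In untreated cells LCN2 led at 58.2 ± 4.88 CPM per kb, then CLU at 31.3 ± 3.28, CD24 at 21.9 ± 0.555 and SOX4 at 7.17 ± 0.235, none of which overlapped its neighbour in the order. CD44 (4.22 ± 1.96 CPM per kb) and SOX9 (3.40 ± 0.380 CPM per kb) overlapped. Below them came SPP1 at 0.182, HAVCR1 at 0.0240, PROM1 at 0.00375 and VCAM1 at 0 CPM per kb. With aristolochic acid LCN2 (19.3 CPM per kb) and CLU (18.4 CPM per kb) overlapped at the head, and CD44, SOX9 and SOX4 overlapped at 4.07, 3.73 and 3.34 CPM per kb. HAVCR1 reached 0.933 and PROM1 0.824 CPM per kb, which also overlapped, and both stayed below each marker that was expressed in untreated cells. In the MYDGF group CLU came first at 24.4 CPM per kb, and CD24 (20.0 CPM per kb) overlapped with LCN2 (19.0 CPM per kb). The deposited FPKM of SPP1 and CD24 rest on lengths of 21338 and 6373 bases, longer than the 7866 and 5797 bases their genes span, and so understate them. Lengths behind the FPKM also exceeded the union of exons for HAVCR1 (5811 against 2151 bases), LCN2, CLU, PROM1, CD44 and VCAM1. Those of SOX9 and SOX4 did not.

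The gene whose pattern over the 9 libraries was most like that of each member was found by the root-mean-square difference of log2 CPM centred on its own mean. For SOX4 it was DOCK11, at a difference of 0.10 over 9916 genes searched; DOCK11 averaged 17.5 CPM with MYDGF, 8.95 CPM with aristolochic acid and 17.2 CPM in untreated cells. EPB41 was nearest to CD24 (0.10), WIPI1 to LCN2 (0.10), TSPAN33 to CLU (0.09), ZNF106 to SOX9 (0.12) and TAF8 to CD44 (0.20). For the low members HAVCR1 and PROM1 the nearest were LRRN4CL (0.25) and WFIKKN2 (0.24), over 13177 genes searched, and WFIKKN2 had no count in untreated cells. Among the markers themselves SOX4 and CD24 were nearest to each other (0.23), then CLU and CD24 (0.27) and CLU and SOX4 (0.32). These are descriptions over libraries that share the group differences.

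Other genes of injury and failed repair went both ways. Of 35, 26 were tested, and with aristolochic acid 8 rose and 8 fell, a median log2 fold change of 0.05 against -0.01 over all genes tested. Of all genes tested, 29.7% were called higher and 29.3% lower with aristolochic acid against untreated cells. With MYDGF against aristolochic acid 14.7% were called higher and 14.7% lower. These background shares also stand beside the counts of each list that follows. LIF, an interleukin-6 family cytokine, averaged 227 ± 14.8 CPM with aristolochic acid and 98.0 ± 3.26 CPM in untreated cells (1.21, edgeR adjusted p = 4.49e-06), and the keratin gene KRT8 rose by 0.72. Complement C3 fell to 85.7 ± 13.2 CPM, against 380 ± 29.6 CPM (-2.15, adjusted p = 5.85e-06), and the integrin gene ITGB8 fell by 1.58. With MYDGF against aristolochic acid 7 were higher and 8 lower (median 0.12 against 0.01). The stress cytokine GDF15 (1.39) and heme oxygenase HMOX1 (0.81) were higher, HMOX1 at 58.3 ± 4.93 CPM with MYDGF and 33.3 ± 1.50 CPM with aristolochic acid, while the chemokine gene CXCL1 (-1.11) and ITGB8 (-1.15) were lower.

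Of 26 receptors, ligands and partners of the markers 18 were tested, and with aristolochic acid 10 fell and 4 rose (median -0.33). SLC22A17, a receptor for the LCN2 protein, averaged 4.51 ± 1.49 CPM with aristolochic acid and 15.9 ± 1.66 CPM in untreated cells (-1.82, edgeR adjusted p = 0.000420). The transcripts of this ligand and receptor were thus both lower, and protein was not measured here. CD74 fell by 1.76 and was higher by 0.81 with MYDGF than with aristolochic acid alone. ITGA9, an integrin chain that binds osteopontin and VCAM1, rose by 2.54 with aristolochic acid and was lower by 1.25 with MYDGF (9.33 ± 0.863 CPM with MYDGF, 22.2 ± 5.88 CPM with aristolochic acid and 3.83 ± 0.682 CPM in untreated cells). HAS3, which makes the CD44 ligand hyaluronan, rose by 1.51. With MYDGF against aristolochic acid 4 were higher, among them ITGA5 (0.50), and 1 lower (median 0.06).

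All 11 regulators of NF-kB and C/EBP were tested, families whose motif letters stand in the printed LCN2 stretch. With aristolochic acid 5 rose and 2 fell (median 0.25). RELB (1.34) and NFKB2 (1.04) rose, and those that fell were CEBPD, at 25.3 ± 1.88 CPM with aristolochic acid and 95.2 ± 3.28 CPM in untreated cells (-1.91, edgeR adjusted p = 9.50e-06), and CEBPB (-1.05). With MYDGF against aristolochic acid 6 were lower and 1 higher (median -0.24): NFKBIA (-0.80) and NFKB1 (-0.62) were lower and CEBPB (0.92) was higher.

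Of 17 other SOX genes 10 did not pass the filter on low counts. Among the 7 tested, SOX15 (1.35) and SOX6 (1.20) rose with aristolochic acid while SOX8 (-2.02) and SOX12 (-0.98) fell (median 0.06); SOX8 passed the filter only through the untreated group. SOX12, a factor of the same subgroup as SOX4, was also the one SOX gene of this list called with MYDGF against aristolochic acid (0.74, edgeR adjusted p = 0.00147). It averaged 32.4 ± 2.61 CPM with MYDGF, 19.4 ± 1.88 CPM with aristolochic acid and 38.4 ± 0.964 CPM in untreated cells. Of 14 genes of nephron development 7 were tested: JAG1 (0.53) and NOTCH2 (0.42), a Notch ligand and receptor, rose and NCAM1 (-1.88) and SIX2 (-1.35) fell with aristolochic acid (median -0.06), and JAG1 (-0.55) and NOTCH2 (-0.25) were lower with MYDGF than with aristolochic acid (median 0.01).

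**Figure D4:**
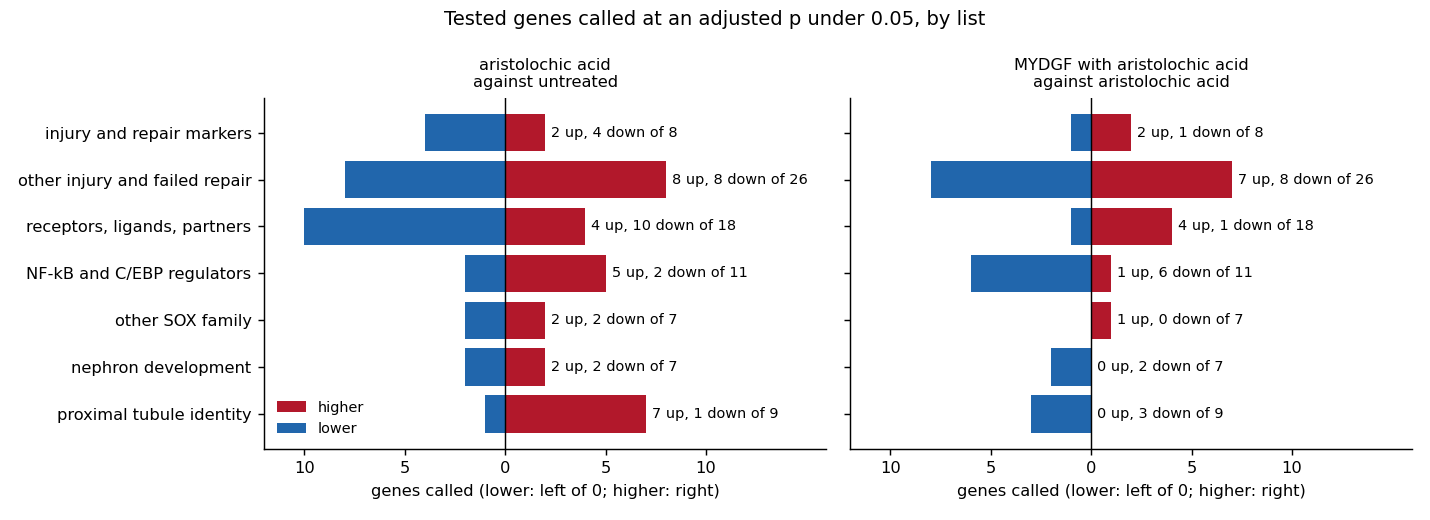
Number of tested genes per list called higher (red, right of 0) or lower (blue, left of 0) at an edgeR adjusted p under 0.05, for aristolochic acid against untreated cells and for MYDGF with aristolochic acid against aristolochic acid. The injury and repair markers and the other injury genes have calls in both directions in both panels. Of all genes tested, 29.7% were called higher and 29.3% lower in the first panel's comparison, and 14.7% in either direction in the other.

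Several defining genes of the proximal tubule, the labelled origin of the cells, had no counts. The organic ion transporters SLC22A6, SLC22A8 and SLC22A2 had no count in any group, and SLC34A1 and HNF4A none in untreated cells. Of 18 proximal tubule genes 9 were tested, with 7 higher and 1 lower with aristolochic acid (median 1.35) and 3 lower with MYDGF against aristolochic acid (median -0.53). Their summed level was 37.8 to 43.2 CPM with MYDGF, 48.5 to 69.5 CPM with aristolochic acid and 30.7 to 34.8 CPM in untreated cells. SLC5A1 and SLC3A1 were near silent in untreated cells, as HAVCR1 and PROM1 were, and passed the filter through the other groups: SLC5A1 averaged 8.60 ± 1.11 CPM with aristolochic acid and 0.0264 ± 0.0457 CPM in untreated cells (7.89), and SLC3A1 rose by 5.42. GATM fell by 1.15, and PDZK1 (-1.61) and ANPEP (-1.55) were lower with MYDGF. General epithelial genes were well expressed, at a summed 1324 to 1354 CPM with MYDGF, 1548 to 1687 CPM with aristolochic acid and 1079 to 1116 CPM in untreated cells. Of 6, 5 were tested, with 3 higher and 2 lower with aristolochic acid (median 0.67): EPCAM (0.75) rose and E-cadherin CDH1 (-1.13) and CLDN4 (-0.72) fell. With MYDGF against aristolochic acid 1 was higher, CDH1 (0.64), and 3 lower, CLDN4 by the most (-3.53; median -0.17).

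Among markers of other cell types, the summed endothelial and distal nephron levels were highest with aristolochic acid, as HAVCR1 and PROM1 were, and the leukocyte and fibroblast sums were not separated in that way. Endothelial markers summed to 3.89 to 4.51 CPM with MYDGF, 7.92 to 13.8 CPM with aristolochic acid and 1.34 to 1.66 CPM in untreated cells, with EMCN at 0 throughout. Of 7, 3 were tested (medians 2.77 with aristolochic acid and -1.90 with MYDGF against it), and PECAM1 (3.74, then -1.90) and TEK (2.77, then -2.29) passed in both comparisons. CDH5 passed in neither (0.53, then 0.87). It was highest with MYDGF, at 1.28 CPM, against 0.700 CPM with aristolochic acid and 0.479 CPM in untreated cells. MYDGF against untreated cells did pass for CDH5 (1.40, edgeR adjusted p = 0.0198) and for PECAM1 (1.85), but not for TEK (0.48). PECAM1 alone averaged 7.89 CPM with aristolochic acid. TEK passed the filter on low counts only through the aristolochic acid group, where it was high, and PECAM1 only through the 2 groups given aristolochic acid. Distal nephron and podocyte markers summed to 5.14 to 7.26 CPM with MYDGF, 9.69 to 15.5 CPM with aristolochic acid and 3.17 to 3.72 CPM in untreated cells, with UMOD at 0; of 7, 2 were tested, SLC12A3 (5.08, then -0.92) and NPHS1 (1.27, then -1.41), with medians of 3.18 and -1.16, and SLC12A3 passed the filter only through the 2 groups given aristolochic acid. Leukocyte markers summed to 10.2 to 13.7 CPM with MYDGF, 18.7 to 20.9 CPM with aristolochic acid and 14.7 to 21.7 CPM in untreated cells, with CD3E at 0. Of 7, 3 were tested: ITGAM (4.12, then -1.18) passed in both and CD68 (-1.46) fell with aristolochic acid (medians -0.75 and -0.38). Fibroblast markers summed to 13.5 to 16.0 CPM with MYDGF, 8.53 to 14.5 CPM with aristolochic acid and 10.5 to 13.1 CPM in untreated cells; of 7, 2 were tested and PDGFRB (0.86) rose with aristolochic acid (medians 0.30 and 0.10). In untreated cells the leukocyte sums spanned those with aristolochic acid, and the fibroblast sums were highest with MYDGF, overlapping those with aristolochic acid. The part of these markers in the changes of HAVCR1 and PROM1 was not tested.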

How the data were processed

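RNA sequencing of 9 HK-2 libraries was re-analysed from the table the authors deposited. Its count columns are raw whole numbers and its FPKM columns were computed by the authors, per the file headers. The submitters' processing notes name edgeR, HISAT2, SAMtools 1.3.1 and CASAVA 1.8, with mm10 as the build. The table nevertheless lists human IDs: 92.9% were found in GENCODE 29, and 99.9% of those overlap its GRCh38 position, so positions are read as GRCh38. The sources used here do not name the counting tool, its strand setting or its handling of multiply matching reads. Genes without a symbol took 1.44 to 1.87% of counts and stayed in.

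edgeR 4.0.16 in R 4.3.3 was used with TMM, filterByExpr (minimum count 10, minimum total 15) and 1 factor of 3 groups over all 9 libraries (6 residual degrees of freedom, biological coefficient of variation 16.4%). The script was tested on simulated data. Alternatives were other scalings, no filter, DESeq2 1.42.0, the 6 libraries compared, replicate numbers as a block and each library left out. FPKM served only to compare levels per length; the CPM per kb was added after seeing the data. A floor of 3 counts over a group was used for a group without counts, and 95% exact binomial intervals for ratios; both cover counting error only.

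The members and the companion lists were chosen with earlier results of these data known. Named genes were all members; the 2 largest called rises and 2 largest called falls of each list in the first pair of comparisons; the nearest gene at or above 5 CPM in untreated cells that ends within 200 kb upstream on the same strand, and protein-coding genes between; and the gene nearest in pattern to each member among protein-coding genes averaging 10 CPM or more (1 CPM for members under 10 CPM). Overlapping genes and the tested endothelial marker CDH5 were also listed. 1 gene that this rule names is not reported here.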

Additional observations from a re-analysis of the deposited data

How the results depend on the processing

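Of 24 member fold changes, 13 passed the threshold, and 8 of these passed in each of the 16 alternative settings in which they were tested. HAVCR1 with MYDGF against untreated, among the 8, was tested in 15 of them. It had no test with only the 6 libraries compared. With that missing test set aside, all 13 passed in the 15 settings other than the replicate block. The labels share numbers only in part (1 in all groups; 3 and 4 in a pair of groups each), and deviations from the group means correlated at -0.165 to 0.018 between same-numbered libraries, so the numbers were not taken to pair the samples. With them as a replicate block (2 residual degrees of freedom) the genes called were 5062 for aristolochic acid against untreated, 14 for MYDGF against aristolochic acid and 5446 for MYDGF against untreated. Under it 0 members passed in edgeR's test of MYDGF against aristolochic acid, with 4 at an unadjusted p under 0.05; DESeq2, without the block, called 3. The members lost under the block were CLU (-0.52) with aristolochic acid, SOX4 (1.05), PROM1 (-2.32) and CD24 (1.11) with MYDGF against aristolochic acid, and SOX9 (0.42) with MYDGF against untreated; HAVCR1 with aristolochic acid became 4.35. Leaving out 1 library gave 9936 to 11347, 3504 to 6614 and 7894 to 10031 genes called in the 3 comparisons, and 6, 3 to 4 and 4 to 5 members; 3504 came without MYDGF library 3. Signs turned only for values that had not passed. With aristolochic acid SOX9 was -0.058 under the block and, with 1 library left out, -0.0093 (without aristolochic acid 4) to 0.26, and CD44 was -0.31 to 0.36, with 0.03 without aristolochic acid 1 and 0.36 without untreated 1. With MYDGF against aristolochic acid LCN2 was -0.16 to 0.10 (0.10, 0.05 and 0.02 without MYDGF 1, aristolochic acid 1 and aristolochic acid 6), and with MYDGF against untreated SOX4 was -0.021 (without untreated 2) to 0.056. The cause was not tested. With the 6 libraries compared alone, CLU passed with MYDGF against untreated (-0.34). The 4 near-silent members were also 4 under 1 CPM, with total counts alone and by FPKM. Depth limits HAVCR1, SPP1, PROM1 and VCAM1, whose counts in untreated cells were 16 or fewer per group.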

Other observations

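A small share of genes differed at least 3-fold between libraries of the same group: of 10658 genes at or above 10 CPM, 122 (1.14%) in the MYDGF group, 136 (1.28%) with aristolochic acid and 134 (1.26%) in untreated cells, and no injury or repair marker among them. The following were picked after their values were seen. JUN, a subunit of AP-1, had 2557, 26 and 127 counts in MYDGF libraries 1, 3 and 4, 3469, 294 and 3296 in aristolochic acid libraries 1, 4 and 6, and 27, 347 and 405 in untreated libraries 1, 2 and 3. TOMM6, of the mitochondrial import pore, had 1129, 10 and 14 counts with MYDGF, 11, 6 and 9 with aristolochic acid, and 1177, 3 and 8 in untreated cells, in the same order of libraries. POLR2A, the largest subunit of RNA polymerase II, had 618, 513 and 53 counts with MYDGF, 722, 889 and 724 with aristolochic acid, and 49, 538 and 531 in untreated cells. RAC1, a small GTPase, had 4893 counts in untreated library 1, against 1543 and 1584 in untreated libraries 2 and 3.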
